A study of Mus musculus with 6 samples.

Results

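Forkhead genes encode transcription factors that bind DNA through a shared winged helix domain. The 9 described here (Foxf1, Foxf2, Foxl1, Foxd1, Foxd2, Foxc1, Foxc2, Foxp1 and Foxp2) were chosen by symbol as forkhead factors of mesenchyme. Each was represented by the probe set, a group of probes for 1 transcript, that carries that symbol alone and has the highest mean over the 6 arrays. All 9 were among the 19938 genes measured. RNA came from stomachs of E13.5 mouse embryos (the embryonic day). Of the 6 Affymetrix arrays, 3 held wild type stomach and 3 held stomach of the genotype Nkx3.2Cre;R26-SmoM2, called SmoM2 below. SmoM2 is a form of the hedgehog transducer Smoothened that signals without ligand. It is switched on from the Rosa26 locus in cells, and the descendants of cells, that made Cre from Nkx3-2, a gene of the stomach mesenchyme and of some other mesoderm. The labels do not say whether a replicate was 1 embryo or a pool, so p-values reflect only how these samples vary, which may in part be technical.

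In the gut, hedgehog ligands leave the epithelium and reach the mesenchyme around it, where Gli factors switch on target genes. Foxf1 and Foxf2 are made through much of that mesenchyme and Foxl1 in the layer directly under the epithelium, and all 3 are known to respond to hedgehog. They are needed for normal mesenchyme and muscle of the gut and for the signals that mesenchyme sends back to the epithelium.

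Foxf2, Foxl1, Foxd1 and Foxf1 were higher in SmoM2, by 1.88-fold, 1.597-fold, 1.38-fold and 1.30-fold. Each passed the threshold of a limma adjusted p of 0.05 over all genes. Foxd2, Foxc1, Foxc2, Foxp1 and Foxp2 did not pass it. So 4 of 9 were higher and 0 lower, where 0.326% of all genes were called higher and 0.657% lower. The same 4 had all 3 SmoM2 arrays above all 3 wild type arrays, which 5.64% of all genes showed, with 10.1% the other way round. The 9 genes were chosen with earlier results of these data known, so these shares describe the genes and are no test of them. The median log2 change of the 9 was 0.12, beside 0.00 over all genes. Each array measured the whole tissue, so more cells of a type and more RNA per cell cannot be told apart. Leaving out any 1 of the 6 arrays left Foxf2 called and Foxf1 not called. Without wild type 3 or SmoM2 2 the count was 3, and without wild type 1, wild type 2, SmoM2 1 or SmoM2 3 it was 1.

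**Figure D1:**
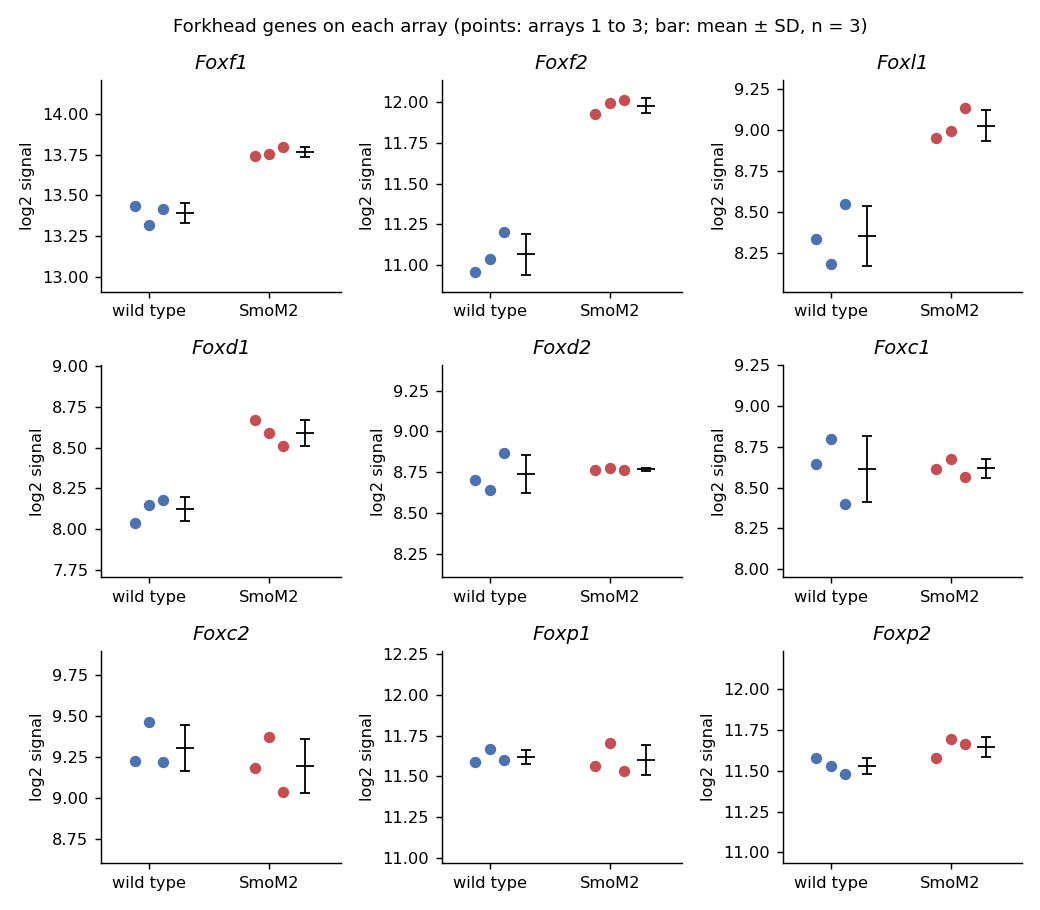
Log2 signal (vertical axes, each spanning the same range) of the 9 forkhead genes on each array, with wild type in blue and SmoM2 in red. Black bars give the mean and SD of 3 arrays. Foxf1, Foxf2, Foxl1 and Foxd1 have every SmoM2 point above every wild type point, and in the other 5 genes the groups overlap.

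The array medians ran from 8.56 to 8.62. The deposited values came from RMA, which gives all arrays 1 common distribution of values. Even medians therefore say nothing of how bright the arrays were before it. To gauge how dim a probe set can be, 1190 genes of odour and pheromone receptors, taken here as not expressed in stomach, were read. Their medians lay between 6.16 and 6.40 on each array, and the 95th percentile of their means was 8.05. Foxl1, Foxd1, Foxd2, Foxc1 and Foxc2 had wild type means from 8.12 (Foxd1) to 9.31 (Foxc2). They lay nearer to that range than the rest of the 9 genes, and small signals are compressed on this scale. Foxf1, Foxf2, Foxp1 and Foxp2 had wild type means from 11.07 to 13.39. Their means over all 6 arrays lay above that of every one of these receptor genes. Xist, the RNA of the inactive X chromosome, stood at 7.11 on wild type 1 and between 11.43 and 12.37 on the other 5 arrays, so the wild type samples did not all hold embryos of the same sex. The Y-linked gene Uty ran from 9.37 to 10.43 in wild type and from 8.77 to 9.24 in SmoM2, while the Y-linked Eif2s3y and Kdm5d and Xist overlapped between groups. None of these 4 passed the threshold (limma adjusted p = 0.147, 0.402, 0.388 and 0.667 for Uty, Eif2s3y, Kdm5d and Xist). Wild type 2 had Xist at 11.94 together with Eif2s3y at 10.09 and Kdm5d at 9.91. On wild type 1 these Y-linked genes stood at 10.40 and 10.29. Whether a sample held more than 1 embryo was not tested. The hedgehog targets Hhip and Ptch1 rose 2.43-fold and 1.40-fold (limma adjusted p = 0.000175 and 0.0174). They were the 2 called higher among 15 measured genes of the hedgehog pathway, of which 12 did not pass. Gli1, a Gli factor, was measured and did not pass.

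Foxf2 had the largest change of the 9. Its log2 signal was 10.96, 11.04 and 11.20 on wild type 1, 2 and 3 and 11.92, 11.995 and 12.01 on SmoM2 1, 2 and 3. The lowest SmoM2 array therefore lay well above the highest wild type array, and the SmoM2 arrays were close to each other. The means were 11.07 ± 0.13 and 11.98 ± 0.05 (SD, n = 3), a log2 change of 0.91 with a 95% interval of 0.73 to 1.09 (limma adjusted p = 0.00197). Foxf2 ranked number 9 among all genes by increase. In the fits without 1 array its change ran from 0.86 to 0.98 and its adjusted p from 0.000859 to 0.0191. Without wild type 1, the array with low Xist, it was 0.86 (adjusted p = 0.0129).

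Foxf1 is the closest relative of Foxf2 and is required early for the mesoderm that surrounds the gut. Its signal was 13.43, 13.32 and 13.42 on the wild type arrays and 13.74, 13.75 and 13.80 on the SmoM2 arrays. The groups did not overlap, and the gap between them was small. The log2 change was 0.37 (SE 0.07, limma adjusted p = 0.0366). Leaving out 1 array left a change of 0.34 to 0.40 with an adjusted p of 0.0598 to 0.219, so no such fit called it. The gene has another probe set that carries its symbol alone, 10576046, beside 10576049, the one used. That probe set read 13.09 ± 0.05 in wild type and 13.45 ± 0.05 in SmoM2 (SD, n = 3), again with no overlap between arrays. Its change was 0.35, and with each probe set tested as its own row its adjusted p was 0.0589, against 0.0428 for the one used. Both probe sets may report the same transcript, so they are no replicates of each other.

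Foxl1 marks cells of the mesenchyme that lie against the epithelium, a source of Wnt and BMP signals. It was at 8.33, 8.18 and 8.55 in wild type and at 8.95, 8.996 and 9.14 in SmoM2. Wild type 3 was the highest of its group and still lay below every SmoM2 array. The log2 change was 0.68, with a 95% interval of 0.45 to 0.90 (limma adjusted p = 0.0188). Without SmoM2 1, SmoM2 3, wild type 1 or wild type 2 the adjusted p was 0.0521, 0.108, 0.0970 and 0.0654, and without wild type 3 or SmoM2 2 the call held.

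Foxd1 is best known from the stroma of the developing kidney. It read 8.04, 8.15 and 8.18 in wild type and 8.67, 8.59 and 8.51 in SmoM2. The groups did not overlap, and SmoM2 3 was the lowest SmoM2 array, whereas it was the highest for Foxf1, Foxf2 and Foxl1. The log2 change was 0.47, with a 95% interval of 0.30 to 0.64 (limma adjusted p = 0.0241). Without SmoM2 1, SmoM2 3, wild type 1 or wild type 2 the adjusted p was 0.0716, 0.0950, 0.140 and 0.0842, and without wild type 3 or SmoM2 2 the call held.

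With the mean of the Y-linked genes Eif2s3y, Kdm5d and Uty as a covariate, Foxf2 had a log2 change of 0.80 (limma adjusted p = 0.0320), while Foxl1, Foxd1 and Foxf1 had 0.58, 0.36 and 0.39 (adjusted p = 0.309, 0.482 and 0.431). The covariate was 10.37, 9.92 and 9.07 in wild type and 8.71, 8.94 and 9.27 in SmoM2, so the groups overlapped at wild type 3 and SmoM2 3, and 22 genes in all were called in this fit. The plot of adjusted p under each setting shows how the 4 genes differ in this respect.

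**Figure D2:**
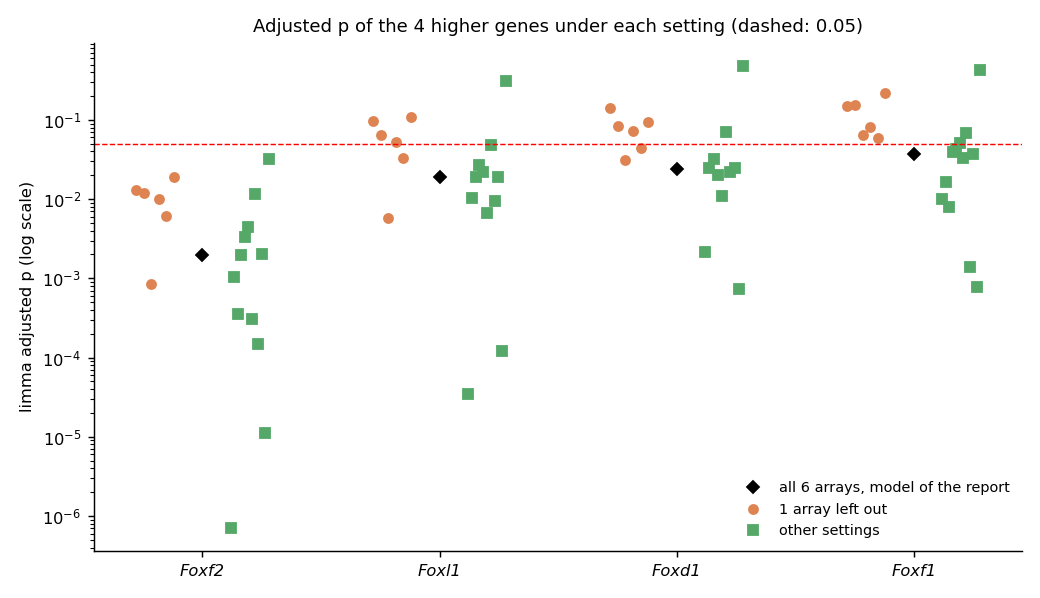
Limma adjusted p (vertical, log scale) of Foxf2, Foxl1, Foxd1 and Foxf1 with all 6 arrays (black), with 1 array left out (orange) and under the other settings (green), with the threshold of 0.05 dashed. All points of Foxf2 lie under the line, and all 6 orange points of Foxf1 lie above it.

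Foxd2, a close relative of Foxd1, was at 8.70, 8.64 and 8.87 in wild type and at 8.76, 8.78 and 8.76 in SmoM2. The SmoM2 values fell inside the wild type range. Its log2 change was 0.03, with a 95% interval of -0.14 to 0.20 (limma adjusted p = 0.950).

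Foxc1 and Foxc2 act in blood and lymph vessels and in the mesoderm of the trunk. Foxc1 stood at 8.65, 8.80 and 8.40 in wild type and at 8.62, 8.68 and 8.56 in SmoM2, so wild type 2 was the highest and wild type 3 the lowest of the 6. The interval of its change was -0.22 to 0.23. Foxc2 stood at 9.23, 9.47 and 9.22 in wild type and at 9.18, 9.37 and 9.04 in SmoM2, with array 2 the highest in each group. The interval of its change was -0.34 to 0.12, and the limma adjusted p was 0.997 for Foxc1 and 0.803 for Foxc2.

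Foxp1 and Foxp2 are repressors that can pair with each other and act together in the muscle and epithelium of the developing foregut. Foxp1 read 11.59, 11.67 and 11.60 in wild type and 11.57, 11.71 and 11.53 in SmoM2, and the SmoM2 arrays lay on both sides of wild type. Foxp2 read 11.58, 11.53 and 11.48 in wild type and 11.58, 11.69 and 11.66 in SmoM2. Its groups met at SmoM2 1, which was no higher than wild type 1 to 2 decimals. The interval of the log2 change was -0.18 to 0.15 for Foxp1 and -0.04 to 0.27 for Foxp2 (limma adjusted p = 0.974 and 0.642). For each of the 5 genes that did not pass, the interval allows a change of either sign, and the bound farthest from 0 was -0.34, for Foxc2.

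Foxf1, Foxc2 and Foxl1 lie close together on chromosome 8, with Mthfsd, an enzyme gene of folate metabolism, between Foxf1 and Foxc2, in the RefSeq gene order of assembly GRCm38.p6. Foxf2 and Foxc1 lie in a similar cluster with Foxq1 on chromosome 13, and Foxd1 is elsewhere on chromosome 13. On chromosome 8, Foxf1 and Foxl1 were higher in SmoM2 and Foxc2 did not pass. In the cluster on chromosome 13, Foxf2 was higher and Foxc1 and Foxq1 did not pass. Around Foxf1, the log2 changes of Mthfsd, Irf8 and Cox4i1 were 0.01, -0.03 and -0.06 (limma adjusted p from 0.907 to 0.976). Fendrr, a long noncoding RNA transcribed next to Foxf1 in the opposite direction, was not analysed here, since no value carries its symbol. Around Foxf2, Foxq1, a regulator of gastric surface mucous cells, had 0.21 and Exoc2, a subunit of the exocyst, 0.30 (adjusted p = 0.422 and 0.154). Both had every SmoM2 array above wild type, while Hus1b, Gmds and Mylk4 overlapped between groups at -0.06, -0.20 and 0.13.

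**Figure D3:**
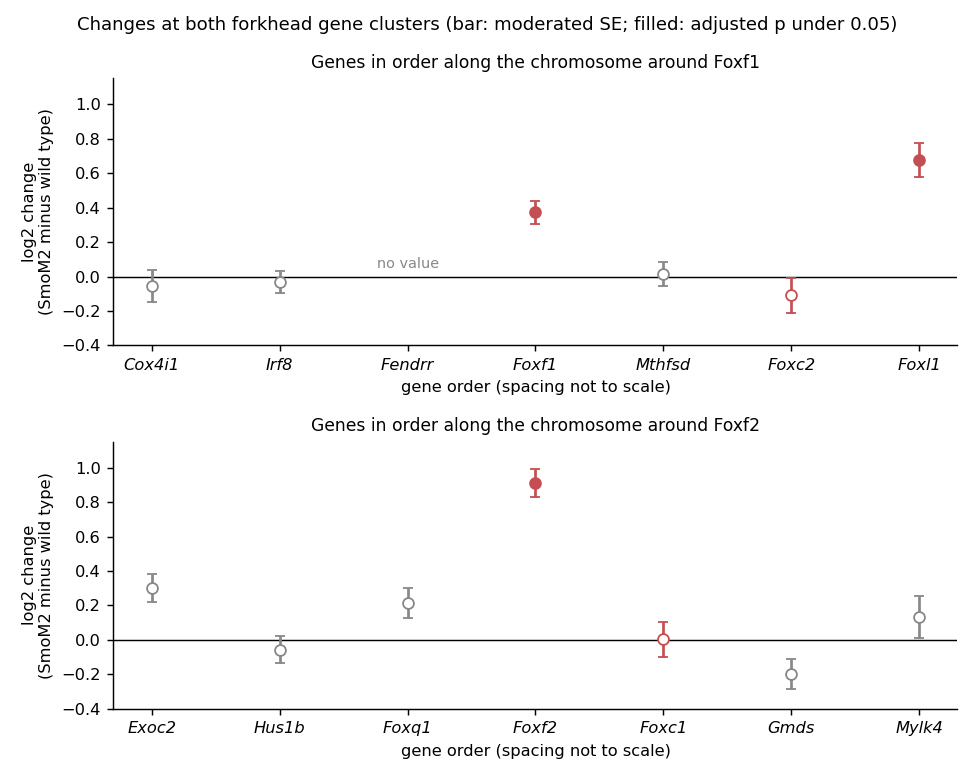
Log2 change (SmoM2 minus wild type, vertical axis, with the moderated SE as bar) of genes in their order along the chromosome around Foxf1 (top) and Foxf2 (bottom), with distances not to scale. Filled points passed the adjusted p of 0.05 and red marks genes among the 9. In the top row Foxf1 and Foxl1 stand above 0 with Mthfsd and Foxc2 between them near 0, and in the bottom row Foxf2 stands above all its neighbours.

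Whether forkhead genes of the same cluster, and Foxf1 and Foxf2 of different clusters, changed unequally was tested within arrays. The difference between 2 genes was taken on each array and compared between 3 SmoM2 and 3 wild type arrays for 5 pairs, with an exact two-sided permutation test that cannot give a p below 0.1. The difference Foxf2 minus Foxc1 was 2.31, 2.24 and 2.81 in wild type and 3.31, 3.32 and 3.45 in SmoM2. The difference Foxl1 minus Foxc2 was -0.90, -1.28 and -0.68 in wild type and -0.23, -0.37 and 0.10 in SmoM2. The groups were apart in each case, and Foxf2 had gained 0.91 more than Foxc1 and Foxl1 0.78 more than Foxc2. Foxf1 gained 0.48 more than Foxc2, 0.30 less than Foxl1 and 0.54 less than Foxf2. In all 5 pairs the groups did not overlap (exact permutation p = 0.1 for each, 0.1 adjusted over the 5 pairs), which is the smallest p this design allows. These differences compare changes, not levels, since different probe sets differ in brightness for the same amount of RNA. The size of a log2 change can also depend on brightness. Foxf1 had a mean of 13.58, at percentile 99.8 of all genes, while Foxl1, Foxc1 and Foxc2 were at percentiles 43.0, 41.3 and 54.7. The part of brightness in these differences was not tested.

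The sequence before the start site was in the RefSeq promoter table of GRCm38.p6 for 5 of the 9 genes, Foxf2, Foxd1, Foxd2, Foxc1 and Foxp1. The 250 bases before the start of Foxf2 (chr13:31625566-31625815, plus strand), of its neighbour Foxc1 (chr13:31806396-31806645, plus strand) and of Foxd1 (chr13:98353995-98354244, plus strand) are printed 5′ to 3′, because Foxf2 and Foxd1 rose and Foxc1 beside Foxf2 did not pass. Capitals mark the letters CCACCC or their reverse complement GGGTGG, the run inside the Gli consensus GACCACCCA.
Foxf2: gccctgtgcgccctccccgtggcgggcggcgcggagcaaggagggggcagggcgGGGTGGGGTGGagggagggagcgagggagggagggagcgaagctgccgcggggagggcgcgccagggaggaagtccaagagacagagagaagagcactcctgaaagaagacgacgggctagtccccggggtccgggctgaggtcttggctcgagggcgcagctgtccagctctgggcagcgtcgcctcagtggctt
Foxc1: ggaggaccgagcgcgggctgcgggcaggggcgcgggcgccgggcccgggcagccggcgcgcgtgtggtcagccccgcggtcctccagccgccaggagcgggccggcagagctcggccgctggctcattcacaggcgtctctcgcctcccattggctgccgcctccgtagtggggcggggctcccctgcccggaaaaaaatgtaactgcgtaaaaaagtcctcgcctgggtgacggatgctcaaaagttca
Foxd1: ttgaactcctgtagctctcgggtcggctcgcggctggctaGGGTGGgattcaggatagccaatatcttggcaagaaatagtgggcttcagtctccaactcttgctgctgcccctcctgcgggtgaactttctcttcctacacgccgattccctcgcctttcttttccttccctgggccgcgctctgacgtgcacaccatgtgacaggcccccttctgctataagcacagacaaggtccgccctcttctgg
Both strands were searched. Foxf2 held 2 such runs, which overlap by 1 base and begin 196 and 191 bases before the start. Foxd1 held 1, beginning 210 bases before it, and the windows of Foxc1 and Foxd2 held 0. Foxp1 has 3 start sites in the table, and 2 of its windows held the run. It occurred in 28.1% of all 32851 windows of this length. The whole consensus GACCACCCA, searched on both strands and containing the shorter run, was in 0.2% of the windows and in none of the windows of these genes. The forkhead core TAAACA, searched on both strands, was in 12% of all windows and, among these 5 genes, in the 3 of Foxp1. The windows of Foxf2 and Foxc1 are rich in G and C, at 71.6% and 70.8% beside a median of 52.4% over all windows, and Foxd1 is at 57.2%. A match describes the letters of a window and does not show that a factor binds there.

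The rest of the forkhead family gives the setting. Of 34 other measured forkhead genes 0 passed the limma threshold in either direction, and 4 had an unadjusted p under 0.05, 3 higher and 1 lower. Over all genes 3.29% were higher and 7.24% lower at that unadjusted p, so 4 of 34 is close to the background. With estimated array weights 7 of them were called, all higher, in a fit that called 4110 genes. Their log2 changes ran from -0.29 to 0.24 with a median of 0.04, so the 4 genes that passed lie above the whole range of the others. The lowest was Foxa1, an epithelial factor of the endoderm, at 10.25, 10.28 and 10.37 in wild type and 9.94, 9.94 and 10.14 in SmoM2 (log2 change -0.29, adjusted p = 0.154). Foxl2, known from the ovary and pituitary, had 0.24 (adjusted p = 0.471) with overlapping groups.

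**Figure D4:**
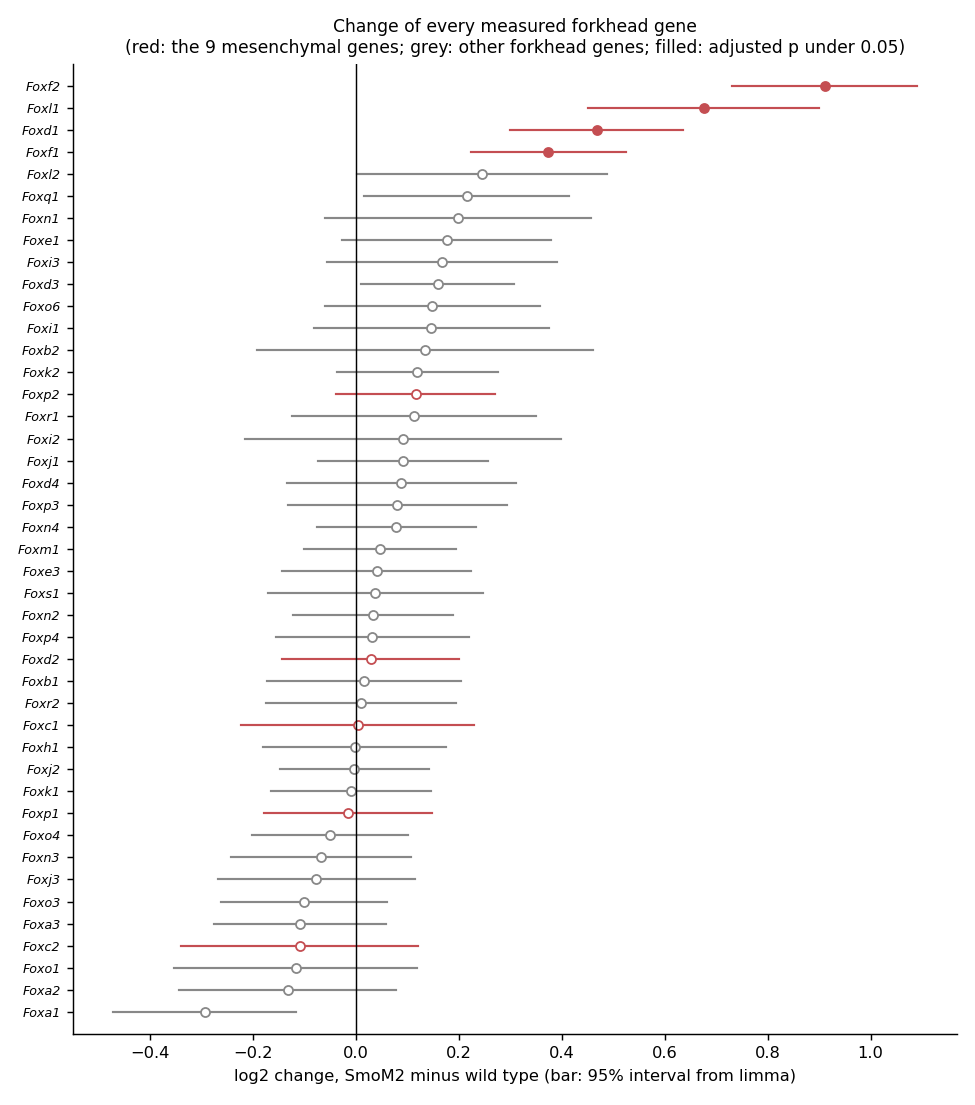
Log2 change (horizontal axis, SmoM2 minus wild type) of all 43 measured forkhead genes with the 95% interval of limma as bar. Red marks the 9 genes described here, grey the 34 others, and filled points an adjusted p under 0.05. Foxf2, Foxl1, Foxd1 and Foxf1 stand at the top and Foxa1 at the bottom.

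Genes of the hedgehog pathway did not move as 1 group. Of 15 measured, 2 rose (Hhip and Ptch1), 1 fell and 12 did not pass, with a median log2 change of -0.06 beside 0.00 over all genes. Over all genes 0.326% were called higher and 0.657% lower. The 1 gene of the list that fell was Boc, a coreceptor that helps ligand bind (log2 change -0.55, SE 0.09, adjusted p = 0.0225). Only Hhip of the list was called when wild type 1, wild type 2 or SmoM2 3 was left out, and Hhip and Ptch1 when SmoM2 1 was. Smo itself, the gene whose active form was introduced, stood at 11.69 ± 0.03 and 12.04 ± 0.19 (SD, n = 3; limma adjusted p = 0.154). Nkx3-2 stood at 9.995 ± 0.08 and 9.88 ± 0.04 (SD, n = 3; limma adjusted p = 0.648).

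A list of 21 genes studied together with Foxf or Foxl1 factors in gut or lung mesenchyme held 3 that rose, 1 that fell and 17 that did not pass, with a median of 0.02. The shares called over all genes were 0.326% higher and 0.657% lower. The 3 list genes that rose were genes of smooth muscle. Myocd, the coactivator that starts the smooth muscle programme, rose 1.82-fold, the enteric actin Actg2 1.61-fold and the actin Acta2 1.39-fold (limma adjusted p = 0.00111, 0.0405 and 0.0436). Col1a2, a chain of fibrous collagen, fell by 0.44 on the log2 scale (adjusted p = 0.0241). Without wild type 1, wild type 2, SmoM2 1 or SmoM2 3, Myocd alone of the list was called. Bmp4, a BMP ligand of the mesenchyme, was at 12.16, 12.33 and 12.31 in wild type and 12.61, 12.58 and 12.71 in SmoM2 with no overlap between the groups, and did not pass (adjusted p = 0.0635). It was called in 6 of 18 other settings, with adjusted p values from 0.00059 to 0.741. Bmp4 was named after its values were seen.

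Some genes followed the 4 higher forkhead genes closely from array to array. Likeness was measured after centring each gene on its own mean, as the root mean square difference in log2 signal over the 6 arrays, among 11463 named genes. Apart from Foxd1, only genes with a mean above the median of all probe sets were used, and predicted genes were left out. Nearest to Foxf2 were Saa2, an acute phase protein, Kcnd3, a potassium channel, and Myocd, at 0.08, 0.10 and 0.11. Nearest to Foxf1 were Msrb3, an enzyme that repairs oxidised methionine, Spc25, a kinetochore protein, and Angptl6, at 0.02, 0.04 and 0.04. Nearest to Foxl1 were Lix1, Rerg, a small GTPase, and Grem1, a BMP inhibitor of the mesenchyme, at 0.08, 0.11 and 0.11. Nearest to Foxd1 were Bmp5, a BMP ligand, Bnip3, a mitophagy gene, and Ptch1, at 0.02, 0.05 and 0.06. With 6 arrays in 2 groups this distance mostly finds genes with a change of similar size, and it says nothing of shared function.

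Several marker lists of other cell types also differed between the groups. Over all genes limma called 0.326% higher and 0.657% lower, and 3.29% and 7.24% had an unadjusted p under 0.05. The mean log2 signal of 12 epithelial markers was 10.20 to 10.31 in wild type and 9.74 to 9.88 in SmoM2, with 0 called higher and 6 lower by limma (0 and 11 at an unadjusted p under 0.05), among them Esrp1, Cldn6 and Cdh1. For 8 mesothelial markers it was 9.87 to 9.99 in wild type and 9.56 to 9.71 in SmoM2 (3 lower, Bnc1, Wt1 and Krt7). Krt19 is in both the epithelial and the mesothelial list. For 8 markers of enteric neurons and glia the mean was 9.82 to 9.99 in wild type and 9.37 to 9.59 in SmoM2. Dcx, Nefm and Nefl were the 3 called lower, with log2 changes of -1.07, -1.01 and -0.84. The other 5 did not pass, 2 of the 8 changes were above 0, and the median change was -0.30. Smooth muscle markers ran the other way. Their mean was 9.90 to 9.96 in wild type and 10.16 to 10.31 in SmoM2, with 5 of 14 called higher and 1 lower. The log2 changes in this list ran from -0.54 to 0.86. Myocd, Actg2 and Acta2 are in this list and also in the list of genes studied with Foxf or Foxl1.

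Markers of mesenchyme were uneven. For 11 general mesenchyme markers the mean was 10.73 to 10.82 and 10.79 to 10.83, so the groups overlapped, with Lum called higher and Col1a2 lower and a median change of 0.00. For 11 markers of the subepithelial layer other than Foxl1 it was 10.14 to 10.19 and 10.36 to 10.43, with 3 called higher, Grem1, Nrg1 and Bmp5, and 1 lower, Sox6, named here after its value was seen. Over all genes 0.326% were called higher and 0.657% lower. Endothelial markers (7 genes) ran from 10.90 to 10.93 and from 10.64 to 10.79, and blood cell markers (7 genes) from 10.17 to 10.28 and from 9.91 to 10.005. None of these 14 was called by limma, while 3 and 6 had an unadjusted p under 0.05, all lower, as had 7.24% of all genes. No marker was at 0, a value that this scale does not reach. Without wild type 1 or SmoM2 3, 0 epithelial markers were called by limma, and without wild type 1, wild type 2, SmoM2 1 or SmoM2 3, 0 subepithelial and at most 2 smooth muscle markers were. The part of cell composition in the forkhead changes was not tested.

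**Figure D5:**
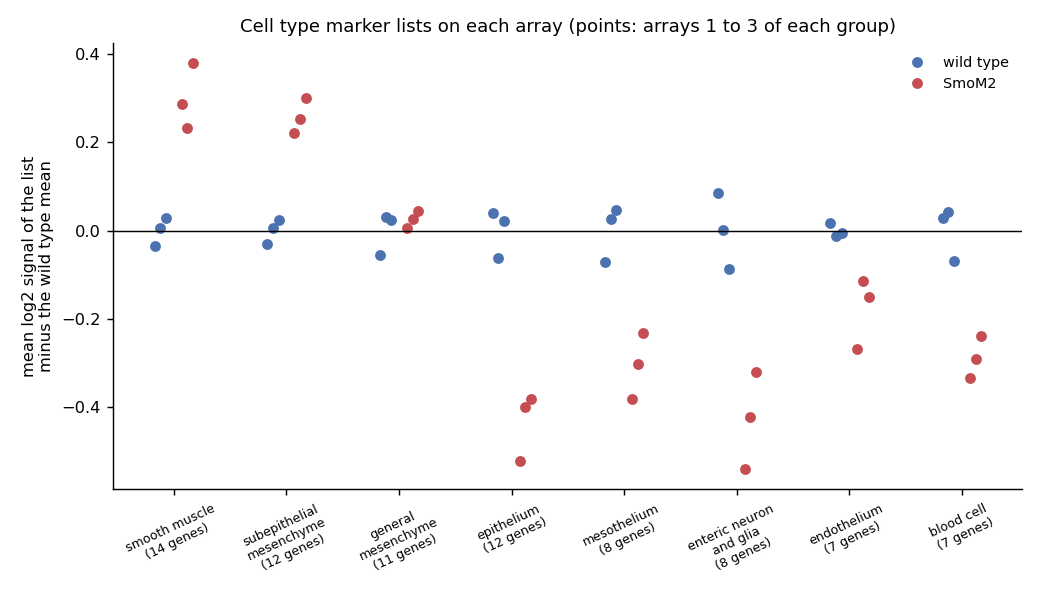
Mean log2 signal of each marker list on each array, minus the wild type mean of that list (vertical axis), for wild type (blue) and SmoM2 (red). Smooth muscle and subepithelial mesenchyme lie above 0 in SmoM2, the latter list including Foxl1, general mesenchyme overlaps with wild type, and the other 5 lists lie below it.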

How the data were processed

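Total RNA of embryonic stomach was extracted with Trizol and labelled with biotin, per the labels' protocols. The authors deposited log2 signals of 35556 probe sets. The submitters' processing notes name RMA and affy without a version. RMA corrects background, gives all arrays 1 common distribution of values and sums probes, so a change in total RNA is not visible.

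Probe sets were named through the platform annotation. Of all probe sets 21789 had 1 symbol, 1621 several and 12146 none there, and each of 19938 genes was represented by its brightest probe set. The symbols of all 9 genes matched RefSeq. limma 3.58.1 in R 4.3.3 (lmFit, eBayes, Benjamini-Hochberg over all genes, threshold 0.05) compared 3 SmoM2 with 3 wild type arrays, after a test on simulated data. In all 196 genes were called, 0.983%, and 2098 had an unadjusted p under 0.05. Levels are means ± SD. Intervals use the moderated SE. Exact permutation tests used SciPy 1.17.1. The number of arrays limits the precision.

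The 9 genes, the lists and the alternatives were chosen with earlier results of these data known. Beyond the 9, named genes are the 3 other forkhead genes with the largest change, up to 3 called members of each list (or 2 with the largest change), 3 nearest profiles per higher gene, 3 neighbours on each side of Foxf1 and Foxf2, the hedgehog readouts Hhip and Ptch1, the design genes Smo and Nkx3-2, and Xist, Eif2s3y, Kdm5d and Uty. Bmp4, Sox6 and Gli1 lie outside this rule.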

Additional observations from a re-analysis of the deposited data

How the results depend on the processing

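Foxf2 kept its direction and its call under all 18 other settings, with a log2 change from 0.80 to 1.00. Foxl1, Foxd1 and Foxf1 kept their direction in each, and were called in 12 of 17, 10 of 16 and 9 of 18 in which they could be tested, since filters on dim signal left Foxl1 out once and Foxd1 out in both. Of the 9 genes 4 were called with all arrays, and 1 to 3 when 1 array was left out. The count was 2 above the 75th percentile of all probe sets, 2 with arrays centred on it (Foxf2 and Foxl1) and 1 with the Y-linked covariate. With quantile normalization repeated Foxf1 had an adjusted p of 0.0516.

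Over all genes the count of 196 became 698 with the replicate block, 120 with centring on the 75th percentile, 336 with an intensity trend, 4110 with array weights, 22 with the Y-linked covariate and 32 to 247 without 1 array. Deviations of same-numbered arrays correlated at -0.10, 0.52 and 0.07 over genes. Arrays of different numbers were not compared, so these values cannot decide whether replicate numbers mark a pairing. The block changed no call among the 9 genes. The array weights ran from 0.33 to 6.02 and their estimation stopped before convergence. They called 7 other forkhead genes against 0.

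Without 1 array the counts of list members called ran from 1 to 3 for the hedgehog pathway, 1 to 5 for genes studied with Foxf or Foxl1, 1 to 7 for smooth muscle, 0 to 4 for subepithelial mesenchyme, 0 to 2 for general mesenchyme, 0 to 6 for epithelium, 0 to 3 for mesothelium and 1 to 3 for enteric neurons and glia. Above the median of all probe sets they were 5, 8, 4 and 1 for the hedgehog pathway, genes studied with Foxf or Foxl1, general mesenchyme and blood cells.

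Changes near 0 turned sign, and none of these was called. Foxp1, at -0.02 with all arrays, was at 0.0094 without wild type 2, 0.0023 without SmoM2 1, 0.019 without SmoM2 3, 0.0004 with quantile normalization repeated, 0.0029 centred on the median and 0.024 centred on the 75th percentile, and without 1 array it ran from -0.067 to 0.019. Foxc1, at 0.0033, was at -0.10 without wild type 3, -0.026 without SmoM2 2 and -0.062 with array weights, and at most 0.096 in the fits without 1 array and 0.14 with the Y-linked covariate. Foxd2 was at -0.021 without wild type 2 and -0.071 with the Y-linked covariate, and at 0.095 without wild type 3, and Mylk4 at -0.063 with that covariate. Mthfsd was at -0.029 and -0.0013 without wild type 3 and SmoM2 2 and -0.013 with array weights, and at most 0.051 in the fits without 1 array and 0.11 with that covariate, Cox4i1 at 0.017 without SmoM2 1 and 0.14 with array weights, and down to -0.15 without SmoM2 3, and Irf8 at 0.0090 centred on the 75th percentile. The cause was not tested for any of these. Foxl1, Foxd1, Foxd2, Foxc1 and Foxc2 were the dimmest of the 9 genes. Their means lay above those of 98.7%, 97.3%, 99.0%, 98.5% and 99.5% of the receptor genes. The part of dim signal in their changes was not tested.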
